A study of Mus musculus with 5 samples.

Results

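Granzymes and the other genes of the cytotoxic granule were followed in lymphocytes of mouse dermis. The 9 genes, chosen by name out of 27998 in the count tables, were the granzymes Gzma, Gzmb and Gzmc, perforin (Prf1), Nkg7, cathepsin W (Ctsw), Fas ligand (Fasl), interferon gamma (Ifng) and serglycin (Srgn). They were read in 4 groups of cells defined without them. NK-gated cells had no UMI of Cd3d, Cd3e or Cd3g and either 1 Ncr1 UMI or 2 UMIs over 7 NK receptor genes. Ctla2a-high cells had at least 2 Cd3 UMIs, at least 3 Ctla2a UMIs making up 0.3% or more of the cell's UMIs, and no Cd8b1 UMI. Cd8b1-positive cells had at least 2 Cd3 UMIs and a Cd8b1 UMI without reaching the Ctla2a limits, and other Cd3-positive cells had neither feature. Of 6139 cells kept, 28 were NK-gated, 1000 Ctla2a-high, 68 Cd8b1-positive and 720 other Cd3-positive.

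All cells came from dermis of C57BL/6 mice, sorted live on the leukocyte antigen CD45 and captured in 10x Genomics droplets, and each RNA molecule was counted once through its unique molecular identifier (UMI) at the 3′ end. There were 5 libraries and 1 library per group: P50_Depil5D, whose title names a depilation and 5D, and P45, P50, P63 and P80, named in the usual form for postnatal age and described as time points of telogen, the resting phase of the hair cycle. Whether P50 in P50_Depil5D is the age at depilation or at collection is not given in the labels, nor are sex and the number of mice in a library. No genotype, transgene or drug is named for any library.

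Cytotoxic lymphocytes store granzymes, which are serine proteases, together with perforin in secretory granules built on the proteoglycan serglycin. Perforin opens the target cell membrane and lets granzymes enter, whereas Fas ligand kills through a receptor at the cell surface and interferon gamma is secreted to act on many cell types. NK cells and CD8 T cells are the classic users of this machinery, and mouse skin also holds resident gamma-delta T cells and other innate-like lymphocytes that can express parts of it.

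The libraries held between 1032621 (P80) and 7491878 (P45) UMIs in 497 to 2153 barcodes. Median UMIs per cell were 1475 in P50_Depil5D, 2543 in P45, 1435 in P50, 1888.5 in P63 and 1249 in P80. Libraries shared cell barcodes: 832 kept cells (13.6% of them, and 50.5% in P80) carried a barcode also present in another library, among them 1 NK-gated, 14 Ctla2a-high, 10 Cd8b1-positive and 41 other Cd3-positive cells. With these cells left out, the member calls between gates given below were all kept, and Srgn was called lower in NK-gated than in other Cd3-positive cells (log2 fold -1.44) in addition. The NK marker list summed to 1204 to 1514 CPM (the share of all UMIs of the same cells, scaled so that shares add to 1e6) in NK-gated cells of the 3 libraries with at least 5 such cells, with 8 of 8 genes detected, 7 of which the gate itself used, against 28.1 to 102 CPM in Ctla2a-high, 0 to 44.6 CPM in Cd8b1-positive and 8.49 to 25.9 CPM in other Cd3-positive cells. Cd3d, Cd3e and Cd3g were at 0 in NK-gated cells by the gate's rule. Of genes the gate did not use, Cd5, Cd8a, Cd8b1 and Cd4 were also at 0, Eomes had 4 UMIs, and the T cell list, through Lat, Cd28 and Thy1, was at 490 to 697 CPM. The gate also held 2 outsized cells, with 12772 UMIs in P45 (41.5% of the gate's UMIs there) and 6611 in P50 (29.4%); values without cells over 6000 UMIs are given below where they differ. The list of epidermal gamma-delta T cell genes summed to 15127 to 32841 CPM in Ctla2a-high cells and 5563 to 11800 CPM in NK-gated cells, against 1531 to 2635 CPM in other Cd3-positive cells, with Ctla2a itself part of both the list and the gate. Keratinocyte markers moved with the gates: Krt5, Krt14 and Krt15 together reached 4778 to 7099 CPM in other Cd3-positive cells, 87.1 to 2048 CPM in NK-gated, 60.0 to 526 CPM in Ctla2a-high and 54.7 to 9055 CPM in Cd8b1-positive cells. In the other Cd3-positive gate, 123 of 720 cells had over 0.2% keratin UMIs, and those had a median of 7313 UMIs, against 1701 in the rest. Leaving such cells out was one of the alternatives, and its folds are given below where a call changed or a fold moved.

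The promoters of the 3 granzymes that separated the gates are shown because these genes went different ways in the same cells, although Gzmb and Gzmc are neighbours on 1 chromosome. The sequences are from RefSeq for GRCm38.p6, cover 300 bases each around the start that RefSeq annotates, lie on the minus strand and are printed 5′ to 3′. They lie at chr13:113100932-113101231 for Gzma, chr14:56262285-56262584 for Gzmb and chr14:56234608-56234907 for Gzmc. Capitals mark matches on either strand to TGTGGT (the core of Runx sites), TGACTCA (the AP-1 site) and TTCCTG (a core of Ets sites).
Gzma: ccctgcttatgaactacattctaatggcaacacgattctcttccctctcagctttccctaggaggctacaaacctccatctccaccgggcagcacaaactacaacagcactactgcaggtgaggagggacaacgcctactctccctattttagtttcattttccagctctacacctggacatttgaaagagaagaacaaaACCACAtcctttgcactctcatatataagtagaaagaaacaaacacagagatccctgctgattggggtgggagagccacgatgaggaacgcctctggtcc
Gzmb: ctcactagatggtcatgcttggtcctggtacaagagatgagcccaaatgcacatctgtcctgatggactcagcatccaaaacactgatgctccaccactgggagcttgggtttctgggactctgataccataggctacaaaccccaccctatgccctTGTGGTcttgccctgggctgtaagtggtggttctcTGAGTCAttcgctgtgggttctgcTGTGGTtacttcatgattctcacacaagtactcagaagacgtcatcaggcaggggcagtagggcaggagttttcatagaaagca
Gzmc: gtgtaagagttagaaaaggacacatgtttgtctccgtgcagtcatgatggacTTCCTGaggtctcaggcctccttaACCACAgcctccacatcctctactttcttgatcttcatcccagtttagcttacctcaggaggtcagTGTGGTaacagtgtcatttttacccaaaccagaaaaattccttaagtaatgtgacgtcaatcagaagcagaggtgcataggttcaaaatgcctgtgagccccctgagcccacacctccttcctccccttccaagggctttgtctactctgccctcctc
Gzma had 1 Runx core, Gzmb had 2 Runx cores and 1 AP-1 site, and Gzmc had 2 Runx cores and 1 Ets core, with no overlap between marked motifs. Among 32851 promoters of the same length, 16.8% held the Runx core, 5.202% the AP-1 site and 30.6% the Ets core, so none of these letters is rare and a match is a description of the sequence only. The gene bodies lie at chr13:113093825-113100981 (Gzma), chr14:56258838-56262260 (Gzmb) and chr14:56231441-56234656 (Gzmc), all protein-coding, in GENCODE vM21 for the same build; the Gzmb window lies wholly upstream of the start that GENCODE gives. In the last 500 bases of the 3 transcripts no window of 90 bases was shared with another granzyme, so reads of that length near the 3′ end would tell them apart.

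Which granule genes distinguish the 4 kinds of lymphocyte was asked with UMIs summed per gate and library, fitted in edgeR with the library as a block; 17 sums of at least 5 cells entered, and 9686 genes were tested. In NK-gated over other Cd3-positive cells, 2 of 9 genes were higher (Gzma and Gzmc) and 0 lower at an adjusted p under 0.05, where 0.496% of all genes were higher and 3.17% lower. In Ctla2a-high over other Cd3-positive cells, 4 were higher (Nkg7, Ctsw, Prf1 and Gzmc) and 2 lower (Gzma and Gzmb), where 7.13% of all genes were higher and 15.5% lower. In Cd8b1-positive over other Cd3-positive cells, 2 were higher (Gzma and Ifng) and 1 lower (Gzmc), where 0.32% of all genes were higher and 0.816% lower. In NK-gated over Ctla2a-high cells, 3 were higher (Gzma, Gzmc and Ifng) and 2 lower (Nkg7 and Srgn), where 1.32% of all genes were higher and 2.19% lower.

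The balance of higher and lower genes depended on the scaling in the contrasts that rest on few cells. With TMM scaling the median log2 fold of all genes was -1.003 in NK-gated over other Cd3-positive cells, -0.80 in NK-gated over Ctla2a-high cells, -0.39 in Cd8b1-positive over other and -0.19 in Ctla2a-high over other Cd3-positive cells. With the size factors of DESeq2 (RLE) these medians were -0.26, -0.20, -0.10 and -0.08. Calls over all genes were 48 higher and 307 lower with TMM, and 93 and 74 with RLE, in NK-gated over other Cd3-positive cells. They were 31 and 79 with TMM, and 48 and 52 with RLE, in Cd8b1-positive over other Cd3-positive cells, and 128 and 212 with TMM, and 194 and 92 with RLE, in NK-gated over Ctla2a-high cells. Of the 9 genes, RLE called 5 higher in NK-gated over other, 5 higher and 2 lower in Ctla2a-high over other, 3 higher and 1 lower in Cd8b1-positive over other, and 4 higher and 1 lower in NK-gated over Ctla2a-high cells. Folds below are from TMM and each can be read against its median.

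**Figure D1:**
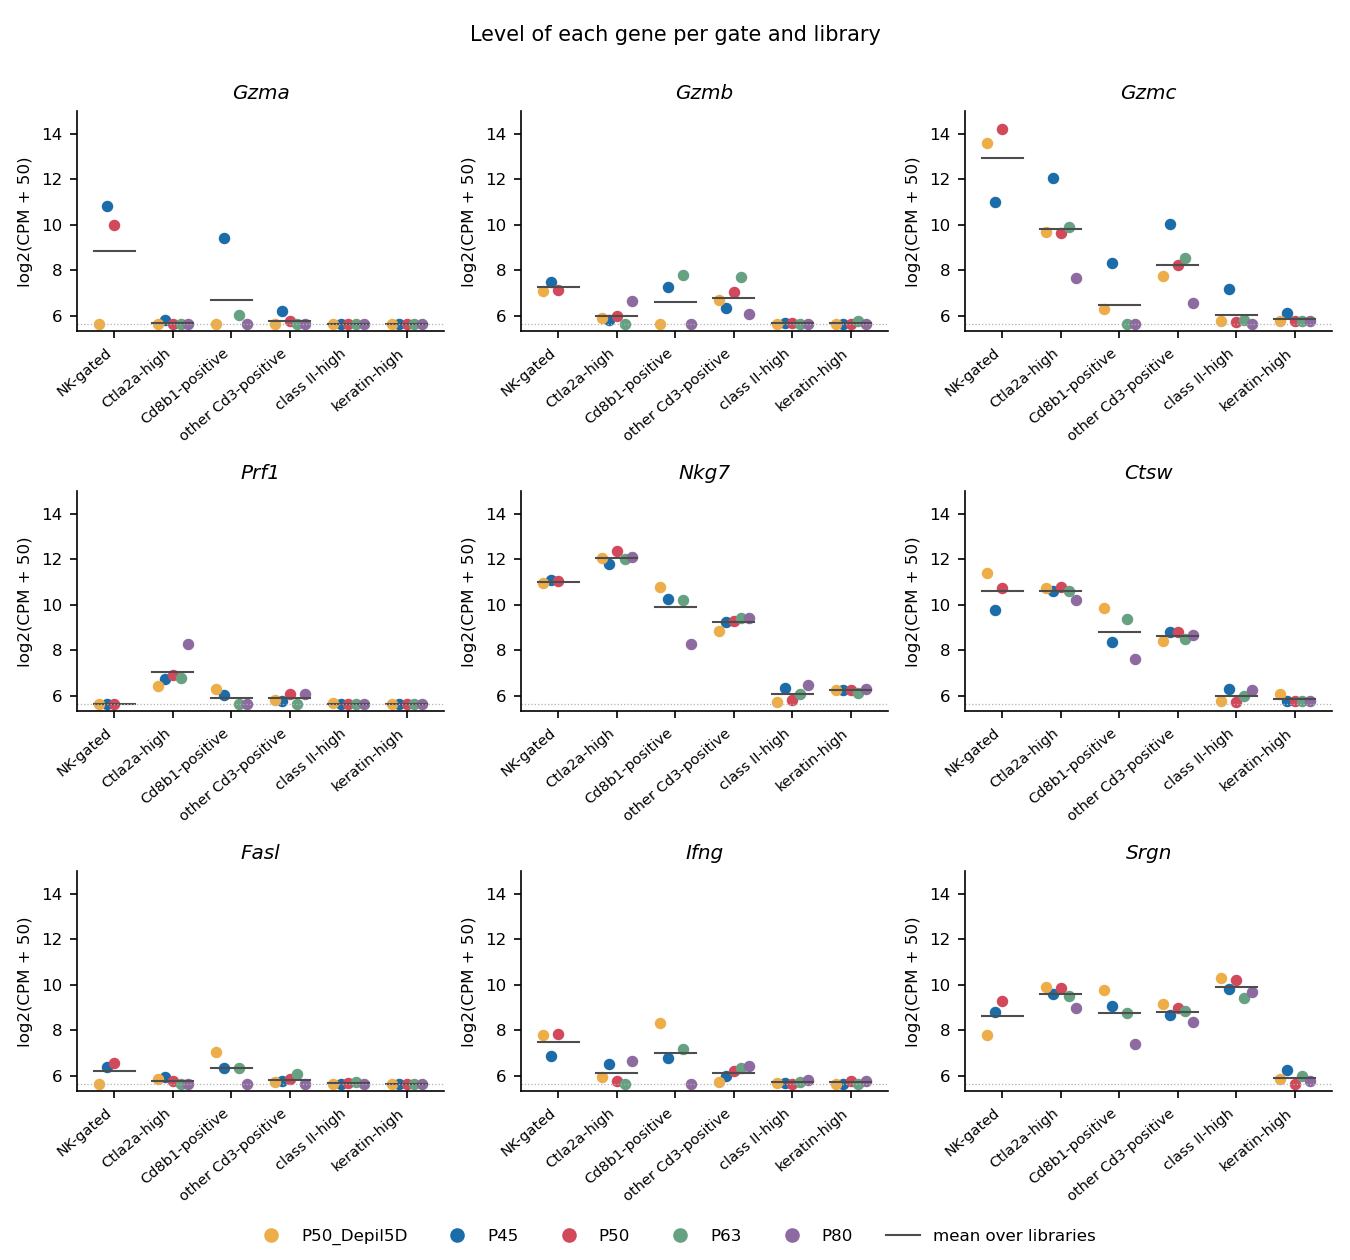
Level of each of the 9 genes as log2(CPM + 50) by gate, with 1 point per library, the mean over libraries as a line, and class II-high and keratin-high cells at the right as background; the dotted line is 0 CPM. Sums of under 5 cells (NK-gated in P63 and P80, Cd8b1-positive in P50) are not drawn. Nkg7, Ctsw and Prf1 in Ctla2a-high cells sit above other Cd3-positive cells in 5 of 5 libraries, whereas Gzma is at or near 0 outside NK-gated and Cd8b1-positive cells.

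**Figure D2:**
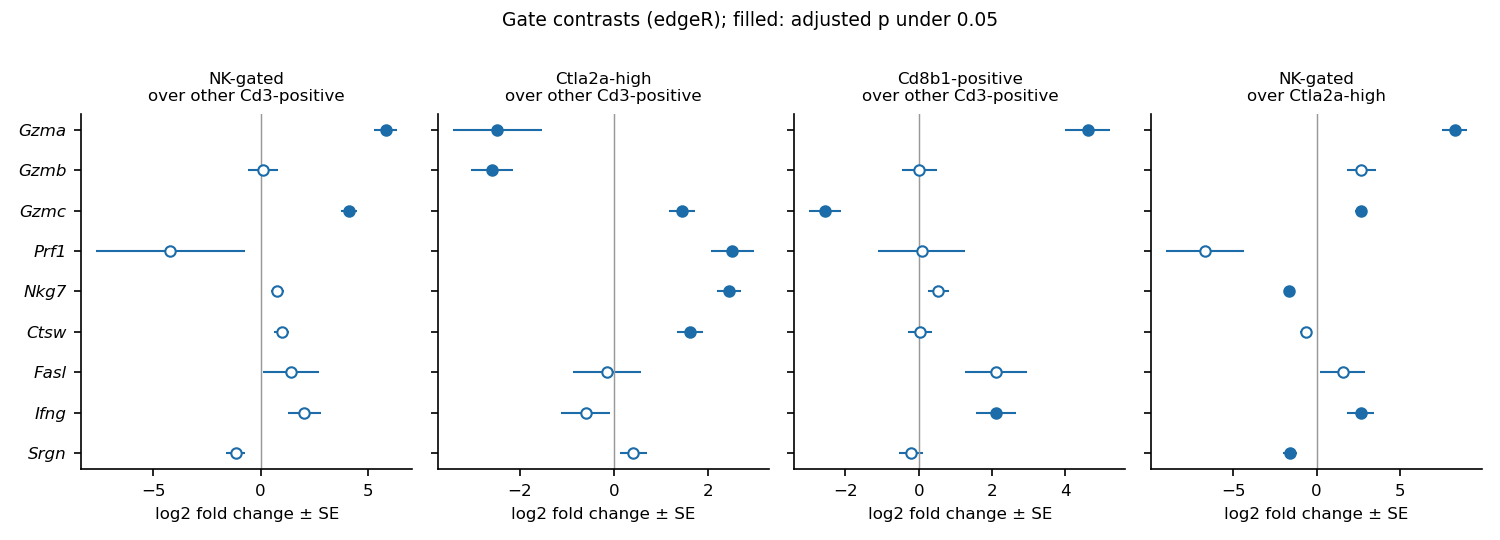
Log2 fold changes with standard errors for the 9 genes in the 4 gate contrasts from the edgeR quasi-likelihood fit with the library as a block; filled points had an adjusted p under 0.05. Gzma and Gzmc are the genes called in NK-gated over other Cd3-positive cells, and Gzmb is called lower in Ctla2a-high cells.

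Gzma, the tryptase among the granzymes, was read mainly in NK-gated cells and in few Cd8b1-positive cells. NK-gated cells held 0 UMIs in P50_Depil5D (8 cells), 54 in P45 (9 cells), 22 in P50 (9 cells), 12 in P63 (1 cell) and 4 in P80 (1 cell), which is 1757 CPM in P45 and 979.6 CPM in P50. Ctla2a-high cells held 1 UMI, in P45, among 1000 cells. Cd8b1-positive cells held 42 UMIs in P45 (624 CPM) and 1 in P63 (15.8 CPM), and other Cd3-positive cells held 25 in P45 (23.4 CPM) and 2 in P50. NK-gated cells in P45 and P50 were above the T cell gates of the same library, and the 8 NK-gated cells of P50_Depil5D had none. Single cells held 28 of the 54 UMIs in P45 and 19 of the 22 in P50, and without them 921 and 143.5 CPM remained. Gzma was higher in NK-gated than in other Cd3-positive cells (log2 fold 5.82 ± 0.55 SE, edgeR adjusted p = 5.305e-23) and than in Ctla2a-high cells (8.30 ± 0.74, adjusted p = 7.773e-26), the higher group leading in 2 of 3 libraries and tied at 0 in P50_Depil5D. DESeq2 gave adjusted p = 0.08743 and 0.08791 for these. In Cd8b1-positive cells the call over other Cd3-positive cells (4.62 ± 0.61, edgeR adjusted p = 7.332e-11) rested on P45, where 1 cell carried 39 of 42 UMIs and 46.2 CPM remained without it; without that library the adjusted p was 0.6674. The lower Gzma of Ctla2a-high than other Cd3-positive cells (-2.48 ± 0.95, edgeR adjusted p = 0.04029) compares 1 UMI with 27, of which 16 were in 1 cell, and was lost under 13 of 22 alternative settings, including each of the fits without P45, P50 or P50_Depil5D. Of all 175 Gzma UMIs in the 5 libraries, 52.6% were in NK-gated, 24.6% in Cd8b1-positive and 15.4% in other Cd3-positive cells.

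Gzmb, the granzyme that cleaves after aspartate and activates caspases, was nearly absent from Ctla2a-high cells. These held 7 UMIs in P50_Depil5D (9.82 CPM), 1 in P45 (5.69), 8 in P50 (14.1), 0 in P63 and 1 in P80 (51.2). Other Cd3-positive cells held 25 UMIs in P50_Depil5D (53.1 CPM), 34 in P45 (31.8), 40 in P50 (82.3), 47 in P63 (159) and 2 in P80 (17.3). Ctla2a-high cells were lower in 4 of 5 libraries, the exception being P80 with its single UMI, and the ranges overlapped. The difference was called (log2 fold -2.60 ± 0.45, edgeR adjusted p = 2.571e-07) and was -3.50 (edgeR adjusted p = 9.301e-15) without cells over 0.2% keratin. In P63, 30 of the 47 UMIs were in 1 cell, and 58.3 CPM remained without it. NK-gated cells held 1 UMI in P50_Depil5D (87.1 CPM), 4 in P45 (130), 2 in P50 (89.1), 6 in the only cell of P63 and 3 in the only cell of P80. They were above Ctla2a-high cells in 3 of 3 libraries, with a log2 fold of 2.69 ± 0.87 that missed the threshold (edgeR adjusted p = 0.05234) and passed it under 6 of 20 alternatives, among them the keratin limit (2.84, adjusted p = 0.01802); without NK-gated cells over 6000 UMIs it was 2.21 with adjusted p = 0.3488. Cd8b1-positive cells held 7 UMIs in P45 (104 CPM), 11 in P63 (174) and 0 in the others. Over the series 52.7% of 281 Gzmb UMIs were in other Cd3-positive cells.

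Gzmc, a granzyme of the cluster on chromosome 14 best known from activated mouse lymphocytes, was uneven both between libraries and between cells of a gate. NK-gated cells had 12369 CPM in P50_Depil5D (142 UMIs), 2017 in P45 (62 UMIs) and 18879.7 in P50 (424 UMIs), and the single cells of P63 and P80 had none. A single cell carried 122 of the 142 UMIs in P50_Depil5D and another 359 of the 424 in P50; without them 2186 and 3545 CPM remained. Ctla2a-high cells had 773 CPM in P50_Depil5D, 4157 in P45, 757 in P50, 912 in P63 and 154 in P80. Other Cd3-positive cells had 163, 984, 251, 322 and 43.2 CPM in the same libraries. P45 was the highest library of both T cell gates and P80 the lowest, and the Cd8b1-positive cells, at 27.3 CPM in P50_Depil5D, 267 in P45 and 0 in P50, P63 and P80, were below the other Cd3-positive cells in each of the 4 libraries compared.

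The fit called Gzmc higher in NK-gated than in other Cd3-positive cells (log2 fold 4.11 ± 0.37, edgeR adjusted p = 1.741e-25), with ranges apart in 3 of 3 libraries. The fold was 2.88 without P50 and was called under each of 21 alternatives. Without keratin-carrying cells the ranges met, since other Cd3-positive cells of P45 rose to 2077 CPM, against 2017 CPM in NK-gated cells there. In P50 and P50_Depil5D the NK-gated cells stayed higher. Over Ctla2a-high cells the fold was 2.67 ± 0.35 (edgeR adjusted p = 5.868e-12), higher in 2 of 3 libraries and lower in P45; without P50 it was 1.30 with adjusted p = 0.7432. Ctla2a-high exceeded other Cd3-positive cells in 5 of 5 libraries with overlapping ranges (1.44 ± 0.28, edgeR adjusted p = 5.816e-06). That difference was smaller without keratin-carrying cells (0.63, edgeR adjusted p = 0.009225), had adjusted p = 0.2203 in DESeq2, and turned to -0.49 (adjusted p = 0.4388) when the Ctla2a limit was 0.6%. It also leaned on single cells: in Ctla2a-high cells 245 of 429 UMIs of P50 and all 31 of P63 were in 1 cell, leaving 327 CPM and 0. Gzmc was lower in Cd8b1-positive than in other Cd3-positive cells (-2.56 ± 0.43, edgeR adjusted p = 1.573e-06, in 4 of 4 libraries), where 15 of the 18 UMIs of P45 were in 1 cell; without P45 the fold was -4.91. Class II-high cells, taken as background, had 3.74 CPM in P50_Depil5D, 94.2 in P45, 2.71 in P50, 6.76 in P63 and 0 in P80, and 91 of the 258 UMIs of P45 were in 1 of them.

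Prf1, which forms the membrane pore, was read at few UMIs and was highest in Ctla2a-high cells among the T cell gates. Ctla2a-high cells held 26 UMIs in P50_Depil5D (36.5 CPM), 10 in P45 (56.9), 40 in P50 (70.6), 2 in P63 (58.8) and 5 in P80 (256). Other Cd3-positive cells held 3 (6.37 CPM), 5 (4.68), 8 (16.5), 0 and 2 (17.3) in the same libraries. The lowest Ctla2a-high library was above the highest other Cd3-positive one, with means of 95.7 ± 90.4 against 8.96 ± 7.60 CPM (SD, n = 5 libraries each). The log2 fold was 2.52 ± 0.46 (edgeR adjusted p = 7.004e-07) and was called under each of 21 alternatives, with 3.13 without P50. NK-gated cells had 0 Prf1 UMIs in P50_Depil5D, P45 and P50, and 1 UMI in the single cell of P80. A count of 0 there allows up to 261, 97.6 and 134 CPM (3 counts of the gate's UMIs), each above the Ctla2a-high level of that library. Within any 1 of these libraries a level like that was therefore not detectable. Over the libraries, NK-gated over Ctla2a-high cells had a log2 fold of -6.73 ± 2.34, its size set by counts of 0. It missed the threshold (edgeR adjusted p = 0.08935), was lower in 3 of 3 libraries and was called lower under 3 of 19 alternatives. Cd8b1-positive cells held 2 UMIs in all.

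Nkg7, a granule membrane protein needed for efficient degranulation, and Ctsw, a cysteine protease of cytotoxic lymphocytes, were the genes present in most Ctla2a-high cells. Nkg7 was at 4244 CPM in P50_Depil5D, 3514 in P45, 5167 in P50, 4088 in P63 and 4351 in P80 in Ctla2a-high cells, against 408, 562, 572, 634 and 631 CPM in other Cd3-positive cells. The gates did not overlap, with means of 4273 ± 595 and 561 ± 92.0 CPM (SD, n = 5 each) and a log2 fold of 2.44 ± 0.26 (edgeR adjusted p = 2.598e-18). Ctsw was at 1639, 1507, 1735, 1499.7 and 1126 CPM in Ctla2a-high cells and at 287, 398, 399, 308 and 355 CPM in other Cd3-positive cells, in the same order of libraries. Here too the gates did not overlap, with means of 1501 ± 231 and 349 ± 51.2 CPM and a log2 fold of 1.62 ± 0.28 (edgeR adjusted p = 1.888e-07). Both genes were called under each of 22 alternatives; without keratin-carrying cells, which raised other Cd3-positive cells to 712 to 1099.0 CPM for Nkg7 and 533 to 754 CPM for Ctsw, the folds were 1.96 and 1.04.

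NK-gated cells had 1916 CPM of Nkg7 in P50_Depil5D, 2115 in P45 and 2048 in P50, and 2613, 813 and 1648 CPM of Ctsw. Nkg7 lay between the Ctla2a-high and the other Cd3-positive cells in each of the 3 libraries. It was called lower than in Ctla2a-high cells (-1.66 ± 0.33, edgeR adjusted p = 5.286e-05; 0.06604 with the stricter gene filter of edgeR) and missed the threshold over other Cd3-positive cells (0.78 ± 0.32, adjusted p = 0.1993). For Ctsw the fold over other Cd3-positive cells was 0.98 ± 0.35 (edgeR adjusted p = 0.1021), higher in 3 of 3 libraries, and RLE scaling called both genes. Both were also called without NK-gated cells over 6000 UMIs (Nkg7 1.01, edgeR adjusted p = 0.03511; Ctsw 1.19, edgeR adjusted p = 0.01652). The deepest cell had 2 Nkg7 and 0 Ctsw UMIs, and without it NK-gated cells of P45 had 3506 CPM of Nkg7, against 3514 CPM in Ctla2a-high cells, and 1391 CPM of Ctsw. The call of lower Nkg7 than in Ctla2a-high cells was kept (-1.44, edgeR adjusted p = 0.0007348). Cd8b1-positive cells had 1721 CPM of Nkg7 in P50_Depil5D, 1174 in P45, 1124 in P63 and 263 in P80, with a log2 fold of 0.54 ± 0.28 over other Cd3-positive cells (edgeR adjusted p = 0.5196) and the lower value in P80. In cells thinned to 750 UMIs, 82.1% of 28 NK-gated, 92.6% of 993 Ctla2a-high, 66.2% of 68 Cd8b1-positive and 29.4% of 714 other Cd3-positive cells had Nkg7, and 64.3%, 64.6%, 47.1% and 26.6% had Ctsw. Class II-high cells, which should lack both, had them in 1.72% and 0.953% of 2099 cells.

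Srgn, the proteoglycan core of the granule, is not restricted to lymphocytes, and 67.2% of its UMIs were in cells over the limit for other lineages. Ctla2a-high cells had 917 CPM in P50_Depil5D, 734 in P45, 884 in P50, 676 in P63 and 461 in P80, against 520.0, 362, 457, 409.9 and 277 CPM in other Cd3-positive cells. Ctla2a-high cells were above in 5 of 5 libraries with overlapping ranges, and the fold missed the threshold (0.41 ± 0.29, edgeR adjusted p = 0.3651). Leaving out keratin-carrying cells raised other Cd3-positive cells to 613 to 1178 CPM and turned the fold to -0.34 (edgeR adjusted p = 0.345). NK-gated cells had 174, 390.4 and 579 CPM in P50_Depil5D, P45 and P50, below Ctla2a-high cells in 3 of 3 libraries (-1.58 ± 0.42, edgeR adjusted p = 0.008096); with RLE scaling this was -0.97 with adjusted p = 0.1827, and without P50_Depil5D the adjusted p was 0.1585. Over other Cd3-positive cells the fold was -1.17 (edgeR adjusted p = 0.1137), and it was called under 5 of 21 alternatives, among them the keratin limit (-1.78, adjusted p = 4.73e-06).

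Fasl and Ifng were rare everywhere, with 50 and 140 UMIs in the 5 libraries together. NK-gated cells held 5 Fasl and 9 Ifng UMIs, Ctla2a-high cells 10 and 18, Cd8b1-positive cells 7 and 20, and other Cd3-positive cells 15 and 40. Ifng in Cd8b1-positive cells was at 273 CPM in P50_Depil5D (10 UMIs), 59.4 in P45, 94.98 in P63 and 0 in P80, against 2.12, 14.0, 30.5 and 34.6 CPM in other Cd3-positive cells. Cd8b1-positive cells were above in 3 of 4 libraries (log2 fold 2.11 ± 0.54, edgeR adjusted p = 0.01453); the call was lost under 4 of 21 alternatives, with adjusted p = 0.8735 without P50_Depil5D and 0.1298 without P45. Ifng in NK-gated cells was 174 CPM in P50_Depil5D, 65.1 in P45 and 178 in P50, against 11.2, 39.8 and 3.53 CPM in Ctla2a-high cells. That difference (2.65 ± 0.82, edgeR adjusted p = 0.03654, 3 of 3 libraries) was lost under 10 of 21 alternatives, among them the fits without P50 (adjusted p = 0.6308), P63 (0.05357) or P50_Depil5D (0.2489). Without keratin-carrying cells Ifng was also called lower in Ctla2a-high than in other Cd3-positive cells (-1.39, edgeR adjusted p = 0.04671). For Fasl no contrast passed; the fold nearest the threshold was 2.10 ± 0.85 in Cd8b1-positive over other Cd3-positive cells (edgeR adjusted p = 0.3138).

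Co-detection was read per cell, after thinning each cell to 750 UMIs so that deep and shallow cells count alike, and was set against the number expected from the shares within each library. In the NK gate Gzma and Gzmc were not detected in the same cell. With all UMIs, 8 of 28 cells had Gzma, 11 had Gzmc, 9 had neither and 0 had both, where 2.44 were expected; in thinned cells the counts were 7, 10 and 0, with 1.78 expected. No test was made on this count of 0, and with so few cells it is a description only. The cells with Gzma came from P45 (4), P50 (2), P63 (1) and P80 (1), and those with Gzmc from P50_Depil5D (4), P45 (4) and P50 (3), so the pair could meet only in P45 and P50.

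**Figure D3:**
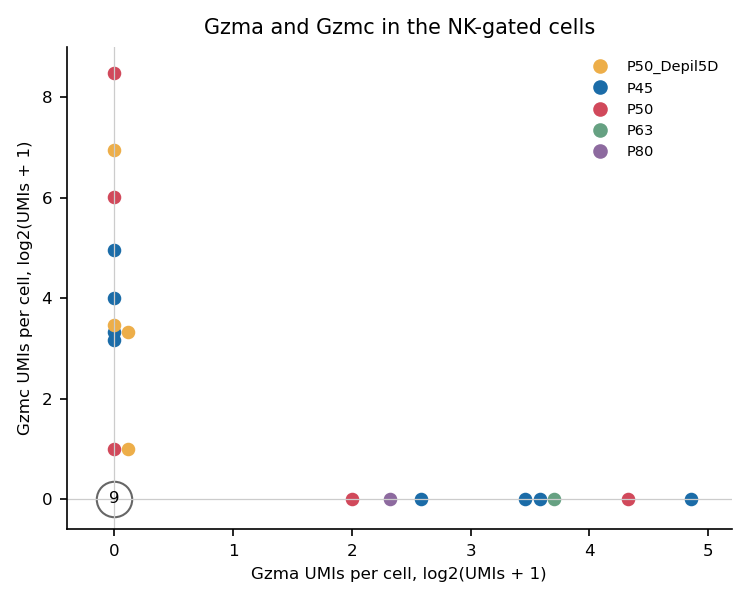
Gzmc against Gzma UMIs in each of the 28 NK-gated cells, both as log2(UMIs + 1) and coloured by library; identical points are set side by side, and the circle marked 9 stands for the cells with neither gene. Cells with Gzma lie along the horizontal axis and cells with Gzmc along the vertical axis, and no cell lies between them.

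The cells with Gzma and the cells with Gzmc differed in other genes too, as a description of a split made after the values were seen. The 8 cells with Gzma (26596 UMIs) had 8949 CPM of Ccl5, a chemokine of effector lymphocytes, with UMIs in 8 of 8 cells, against 417 CPM and 3 of 11 cells in those with Gzmc (21562 UMIs). Gzmb was at 489 CPM with Gzma and 92.8 CPM with Gzmc, and the 5 Fasl UMIs of the gate were all in cells with Gzma. The same held for the 8 UMIs of Klra4, 7 of them in 1 cell, and 9 of Klra8, NK receptor genes that the gate itself used. Ncr1, also used by the gate, was at 226 CPM with Gzma and 371 CPM with Gzmc. Klre1 was at 489 and 325 CPM, Klrb1c at 489 and 92.8 and Klri2 at 301 and 46.4, and Khdc1a had 1 UMI, with Gzma. In the other direction Ctsw was at 376 CPM (interval 180 to 692) with Gzma and 3061 CPM (2367 to 3894) with Gzmc. Xcl1, a chemokine that attracts dendritic cells, was at 1015 CPM with Gzma and 7931 CPM with Gzmc, in 11 of 11 cells, although 112 of its 171 UMIs were in 1 cell. Nkg7 was at 2519 CPM with Gzma and 1948 CPM with Gzmc. Of T cell genes that the gate did not use, Lat had 1 UMI with Gzma and 6 with Gzmc, Cd28 0 and 3, Thy1 10 and 11, and Cd5 0 in both. Of genes listed for type 1 innate lymphoid cells or tissue NK cells, Cxcr6 had 0 and 3 UMIs and Tmem176b 2 and 4. Itga1 had 0 and 1, Il7r 2 and 1, and Cd200r1 0 in both. Whether the cells with Gzma and those with Gzmc are both NK cells was not tested. The cell of 12772 UMIs was among those with Gzma, and without it the 7 others had 723 CPM of Ctsw (347 to 1330), 4702 of Nkg7, 15263 of Ccl5 and 1953 of Xcl1. The intervals cover counting error only, and cells of a gate are not replicates.

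Among other Cd3-positive cells, the number of cells with both genes exceeded the expected number for several pairs, which is a description without a test. Nkg7 and Ctsw met in 110 of 714 cells where 55.8 were expected, above expectation in 5 of 5 libraries, and 52.4% of cells with Nkg7 had Ctsw, against 15.9% of those without. Gzmc and Ctsw met in 38 cells where 14.4 were expected (4 of 5 libraries), Gzmc and Nkg7 in 35 where 16.1 were expected (5 of 5), and Ctsw and Ifng in 11 where 3.45 were expected (5 of 5). The set was not shared by every member: Gzmc and Srgn met in 12 cells where 17.6 were expected, and Gzmb and Gzmc in 1 where 1.43 were expected. The excess was smaller with all UMIs, with observed over expected of 1.55 for Nkg7 and Ctsw and 1.66 for Gzmc and Ctsw, against 1.97 and 2.64 in thinned cells. With all UMIs Gzmc and Srgn met in 59 cells with 60.65 expected, and Gzmb and Gzmc in 2 with 6.17 expected. In Ctla2a-high cells, where most cells had both, Nkg7 and Ctsw met in 602 of 993 cells with 594 expected, and Gzmc and Ctsw in 72 with 59.2 expected (5 of 5 libraries). Gzmc and Prf1 met in 1 Ctla2a-high cell with 3.31 expected, a difference within counting error. Cells carrying at least 2 of Gzma, Gzmb, Gzmc and Prf1 made up 7.14% of NK-gated, 0.201% of Ctla2a-high, 1.47% of Cd8b1-positive and 0.7003% of other Cd3-positive cells, and cells with none of them 32.1%, 86.8%, 88.2% and 88.0%. The NK-gated share rests on 1 cell with 2 of the genes and 1 cell with 3. They were the only NK-gated cells of P63 and P80, and no NK-gated cell of the other libraries carried 2.

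Gzmc was concentrated in a minority of cells that also differed in other transcripts. Thinned to 750 UMIs, Gzmc was found in 35.7% of NK-gated, 9.37% of Ctla2a-high, 2.94% of Cd8b1-positive and 7.42% of other Cd3-positive cells, against 1.19% of class II-high cells. In all, 211 cells had at least 3 Gzmc UMIs: 9 were NK-gated, 65 Ctla2a-high, 1 Cd8b1-positive, 46 other Cd3-positive, 21 over the other-lineage limit and 1 both Ctla2a-high and Cd8b1-positive, while the remaining 68 had at most 1 Cd3 UMI and no gate. In Ctla2a-high cells of P45, the 10 genes highest in such cells (25 cells) over cells without Gzmc (43 cells) were Tyrobp, Ccl5, Ms4a4b, Ccl4, Pglyrp1, Ly6c2, AW112010, Ccl1, Cd82 and Klra1; they were chosen after their values were seen, and were then read in libraries not used to choose them. In Ctla2a-high cells of the other 4 libraries (40 and 833 cells) Tyrobp, the adaptor of activating NK receptors, was at 979 CPM in Gzmc-rich cells and 30.5 CPM in cells without Gzmc. There Ccl5 was at 367 and 20.04 CPM, Ms4a4b at 234 and 6.97, Pglyrp1 at 323 and 16.6, and Cd82, a tetraspanin, at 434 and 29.6. All 10 genes were higher in the Gzmc-rich cells of these libraries pooled, of which 20 were from P50 and 18 from P50_Depil5D. Within P50 Ccl1 had 0 UMIs in both groups, and its 10 UMIs in Gzmc-rich cells were all from P50_Depil5D. The rest of the 10 genes were higher within each of P50 and P50_Depil5D. Medians of 2057 and 1185 UMIs per cell in the pooled groups show that the Gzmc-rich cells were also the deeper ones.

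**Figure D4:**
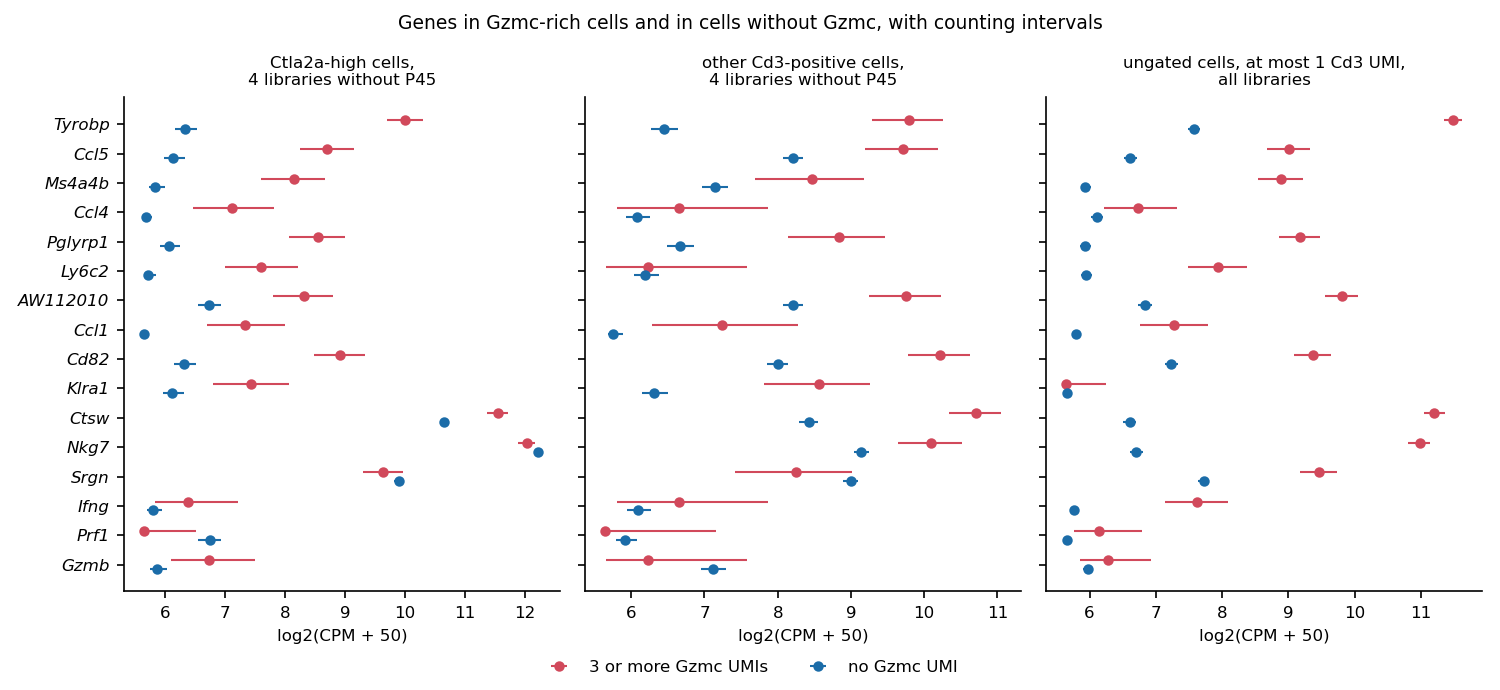
Level as log2(CPM + 50) of the 10 genes chosen in P45 and of 6 granule genes, in cells with at least 3 Gzmc UMIs and in cells with none, with exact 95% Poisson intervals as bars. Panels show Ctla2a-high and other Cd3-positive cells of the 4 libraries not used to choose the genes, and ungated cells of all libraries. The ungated cells were not chosen as lymphocytes and can include other cell types. Tyrobp lies at 979, 836 and 2823 CPM in the Gzmc-rich cells, against 30.5, 37.5 and 141 CPM in the cells without Gzmc.

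The granule genes themselves did not all follow Gzmc. In Ctla2a-high cells outside P45, Ctsw was at 2948 CPM in Gzmc-rich cells and 1564 CPM in cells without Gzmc, Nkg7 at 4138 and 4718 CPM, and Prf1 at 0 and 56.7 CPM. In other Cd3-positive cells outside P45 (16 and 446 cells) Tyrobp was at 836 and 37.5 CPM, Cd82 at 1140.2 and 206, Ctsw at 1622 and 293, Nkg7 at 1039 and 516, and Ccl5 at 786 and 246. There Ly6c2 was at 25.3 and 23.1 CPM and Ccl4 at 50.7 and 17.5, on 1 and 2 UMIs in the Gzmc-rich cells. Within P50 (8 Gzmc-rich cells) and within P50_Depil5D (4) both were at 0 CPM in Gzmc-rich cells and above 0 in those without Gzmc. Ccl1 did the same within P50_Depil5D, and the rest of the 10 genes were higher in Gzmc-rich cells of both libraries. In other Cd3-positive cells of P45 Ccl5 ran the other way, at 242 and 396 CPM, Ccl4 was at 66.8 and 66.7, and the other 8 of the 10 genes were higher in the Gzmc-rich cells. The 68 Gzmc-rich cells outside the gates, set against 1360 ungated cells without Gzmc, had 2823 and 141 CPM of Tyrobp, 2315 and 47.3 of Ctsw, 1975 and 54.1 of Nkg7 and 146.0 and 4.37 of Ifng. The 1360 cells were all ungated cells without Gzmc that had at most 1 Cd3 UMI and lay under the other-lineage limit. They were not chosen as lymphocytes and can include other cell types, and their make-up was not tested. Of the 10 genes, Klra1 was at 0 CPM in these 68 cells and 0.243 CPM in those without Gzmc, and the rest were higher in the 68 cells. Klra4 and Klra8 were at 0 in the 68 cells, and 11 of them had any UMI of the NK panel. These low counts are partly fixed by the gates. Of the 68 cells, 42 had 0 Cd3 UMIs, and such a cell with 1 Ncr1 UMI or 2 panel UMIs would have been NK-gated.

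Cells with Gzmb carried other transcripts. The 24 other Cd3-positive cells with at least 2 Gzmb UMIs came from P50_Depil5D (3), P45 (7), P50 (8), P63 (5) and P80 (1) and had a median of 1657 UMIs, against 1790 in the 669 cells without Gzmb. Of genes of regulatory T cells, Foxp3 had a UMI in 33.3% of cells with Gzmb and 5.23% of cells without, Ctla4 in 41.7% and 15.3%, Il2ra in 33.3% and 8.82%, Ikzf2 in 54.2% and 43.6%, and Tnfrsf4 in 58.3% and 22.7%. Cd8a, which the gates did not use, was in 16.7% and 0.897%, Cd4 in 16.7% and 4.93%, and Ccl5 in 45.8% and 15.1%. Of the type 17 list, Il17a, Il23r and Cd163l1 were in 0 of the 24 cells and in 3.14% to 9.42% of the cells without Gzmb, whereas Blk was in 4.17% and 8.07% and Maf in 12 of the 24 cells and 38.7%. Gzmc was in 0 and 13.5%. A share of 0 in 24 cells allows up to 12.5% of such cells (3 of 24), and cells of 1 library are not replicates, so these shares are a description.

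Whether depilation moved these genes was read as P50_Depil5D against P50, 1 library each and so with no test, in the gates with at least 20 cells in both. Of the members with 20 UMIs or more, 0 passed a 2-fold difference of CPM + 50 in either gate, where 0.351% of 5414 genes did in Ctla2a-high and 0.265% of 4534 in other Cd3-positive cells. In Ctla2a-high cells the ratio was 1.02 for Gzmc (Poisson interval 0.898 to 1.16), 0.945 for Ctsw (0.868 to 1.03), 1.04 for Srgn (0.922 to 1.17) and 0.821 for Nkg7 (0.780 to 0.865). Prf1 was at 36.5 CPM (26 UMIs) in P50_Depil5D and 70.6 CPM (40 UMIs) in P50, a ratio of 0.517 (0.303 to 0.868). In other Cd3-positive cells Gzmc stood at 0.651 (0.483 to 0.873), Nkg7 at 0.713 (0.590 to 0.859), Ctsw at 0.718 (0.572 to 0.899), Gzmb at 0.645 (0.375 to 1.09) and Srgn at 1.14 (0.946 to 1.37), and Ifng had 1 and 11 UMIs. Several of these directions turned with the gate limits: on the log2(CPM + 50) scale Gzmc in other Cd3-positive cells was -0.50, but 0.27 with Cd3-positive cells taken from 1 UMI and 0.66 with a Ctla2a limit of 0.6%. Nkg7 there was -0.44, but 0.14 with the 0.6% limit, Srgn was 0.17, but -0.05 from 1 UMI, and Gzmc in Ctla2a-high cells was 0.03, but -0.15 and -0.49 under the same 2 settings. The intervals cover counting error within these libraries and not the spread between mice.

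In the telogen series, Gzmc was the member past 2-fold between P80 and P45. Thinned shares in Ctla2a-high cells were 37.3% in P45, 8.69% in P50, 4.55% in P63 (1 of 22 cells) and 7.69% in P80 (1 of 13 cells), and in other Cd3-positive cells 13.8%, 5.0%, 4.08% and 2.27%. P80 held 3 Gzmc UMIs and P45 731 in Ctla2a-high cells, which is 154 and 4157 CPM and a log2 ratio of -4.37 on the CPM + 50 scale, where 20.5% of 1354 genes passed 2-fold. In other Cd3-positive cells P80 held 5 and P45 1052, which is 43.2 and 984 CPM and a log2 ratio of -3.47, where 2.51% of 5612 genes passed 2-fold. No other member with at least 20 UMIs passed 2-fold in either gate; the P80 values rest on 1 cell each, and class II-high cells also had 0 CPM in P80 and 94.2 CPM in P45. Leaving out shared barcodes gave -2.77 for Gzmc in other Cd3-positive cells, gave a log2 ratio of 0.74 in place of -0.15 for Ctsw and of 0.54 in place of -0.33 for Srgn there, and left fewer than 20 Ctla2a-high cells in P80. Between P80 and P45, Nkg7 had ratios of 1.24 (0.975 to 1.56) in Ctla2a-high and 1.12 (0.868 to 1.43) in other Cd3-positive cells, and Ctsw of 0.747 (0.460 to 1.16) and 0.892 (0.631 to 1.23). Prf1 in Ctla2a-high cells had 5 UMIs in P80 and 10 in P45, too few for the 20-UMI minimum, with 256 and 56.9 CPM and a log2 ratio of 1.52. With 1 library per age, age and library cannot be told apart.

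**Figure D5:**
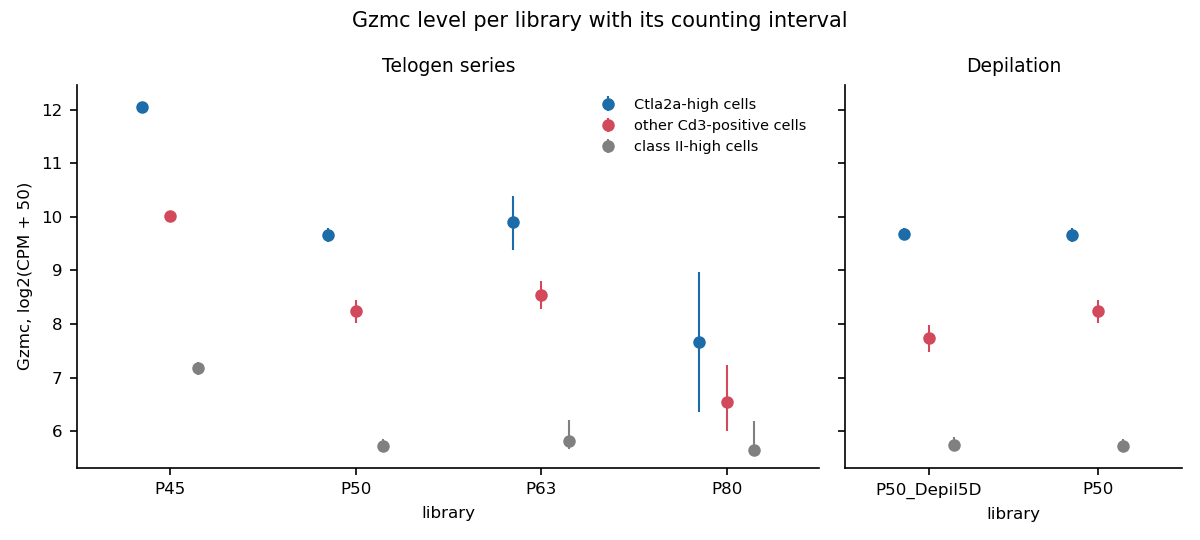
Gzmc level as log2(CPM + 50) by library in Ctla2a-high, other Cd3-positive and class II-high cells, with exact 95% Poisson intervals as bars; the left panel holds the telogen series and the right panel P50_Depil5D beside P50. Ctla2a-high cells stand at 4157 CPM in P45 and 154 CPM in P80, and at 773 CPM in P50_Depil5D and 757 CPM in P50.

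The wider granule programme was read in 7 lists, whose counts in Ctla2a-high over other Cd3-positive cells are to be read against the 7.13% of all genes higher and 15.5% lower. Of granule proteases and inhibitors, 5 of 7 tested genes were higher and 0 lower in Ctla2a-high over other Cd3-positive cells, with a median log2 fold of 2.19 against -0.19 over all genes: the granzyme inhibitor family members Serpinb6b (2.72) and Serpinb9 (2.28), the cathepsin inhibitor Cst7 (2.56), cathepsin C (Ctsc, 2.19), which activates granzymes, and Serpinb1a (1.09). Of granule biogenesis and release, 1 of 14 was higher (Rab27a, 2.19, needed for granule docking) and 2 lower (Stx11, -1.44, and Lamp2, -0.95), with a median of -0.08, which are shares near those of all genes. Of adaptors and coreceptors, 5 of 9 were higher, led by Fcer1g (2.28), Cd244 (2.16) and Klrk1 (1.85), and 1 was lower (Sh2d1a, -3.69). Fcer1g and Cd244 belong to the epidermal marker list. Runx3 (1.71) was the 1 of 9 transcription factors higher, and Bhlhe40 (-3.51), Prdm1 (-1.81) and Gata3 (-1.48) were lower. Of 5 chemokines Xcl1, also in the epidermal marker list, was higher (2.52) and Ccl5 lower (-1.86). Of 7 death ligands and cytokines Tnf was higher (0.99) and Ltb lower (-0.95).

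In NK-gated over other Cd3-positive cells, 4 of 5 chemokines were higher and 0 lower, with a median of 2.41 against -1.003 over all genes: Ccl3 (5.69), Ccl1 (3.02), Ccl5 (2.41) and Xcl1 (2.04). The values of Ccl1 and Ccl3 leaned on single cells with Gzmc, which held 49 of 50 Ccl1 and 16 of 22 Ccl3 UMIs of the gate. Serpinb9 (3.54) and Serpinb6b (2.37) were the 2 of 7 proteases and inhibitors called, Tyrobp (3.71) and Klrk1 (1.68) the 2 of 9 adaptors, and in granule release, cytokines and transcription factors 0 were called. Of all genes 0.496% were higher and 3.17% lower in this contrast, so 0 called in those lists is near the share of all genes. In NK-gated over Ctla2a-high cells, Ccl3 (7.22), Ccl5 (4.27), Ccl1 (2.82) and Tyrobp (2.74) were higher, and Fcer1g (-1.28), Cst7 (-2.49), Runx3 (-2.68) and Tnf (-3.93) lower, as was Serpinb1a, too low in NK-gated cells for a fold. Of all genes 1.32% were higher and 2.19% lower there. In Cd8b1-positive over other Cd3-positive cells, Ccl3 (4.997), Ccl4 (3.53) and Ccl5 (2.86) were higher and Xcl1 (-1.97) and Fcer1g (-2.49) lower, and the other lists had 0 called. With 0.32% of all genes higher and 0.816% lower in that contrast, 0 called in the other lists is near the share of all genes. The remaining granzymes were nearly absent, with 0 UMIs of Gzmd, Gzme, Gzmg and Gzmn, 1 of Gzmf, 3 of Gzmm and 6 of Gzmk, 5 of them in Cd8b1-positive cells.

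The genes whose level ran most like each member over the 17 gate sums are given as a description, since sums of 1 library share its cells and depth. For Gzmc they were Tyrobp (Pearson r 0.90), Lat2 (0.88) and Galnt1 (0.86), with Tyrobp also the leading partner within Ctla2a-high cells. For Nkg7 they were Bin1, Klrd1 and Fxyd5 (0.93 each), and for Ctsw Ptprcap (0.96), Sh3bgrl3 (0.94) and Il2rb (0.91). The leading gene was Sod1 for Gzma (0.83), Ino80d for Gzmb (0.73), Rpa1 for Prf1 (0.89), Ms4a6b for Fasl (0.86), Rac2 for Ifng (0.88) and Clta for Srgn (0.87), with the least close match for Gzmb.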

How the data were processed

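The deposited files are 10x matrices of whole-number UMI counts per gene and cell for 5 libraries, which the authors left unnormalized; the submitters' processing notes name Seurat and mm10. The aligner, gene annotation and cell-calling method were not given in the sources used here. Of 27998 gene IDs, 27645 were found in GENCODE vM21, which gave coordinates on GRCm38 (mm10).

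Kept cells had 200 genes or more, with mitochondrial UMIs making up 10% or less (61 of 6223 barcodes failed). Scrublet marked 23 doublets (0.373%), which were removed, but with so low a share the caller may have failed, and doublets cannot be taken as removed. Cells with over 2% of UMIs in class II, macrophage and keratin genes entered no gate; 267 cells that met a gate's other limits were left out this way. Of 1799 Cd3-positive cells, 77 had a Ctla2a share just below the 0.3% limit (0.2 to 0.3%) and 69 just above it (0.3 to 0.4%).

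UMIs were summed per gate and library (sums of at least 5 cells) and tested with edgeR 4.0.16 in R 4.3.3: quasi-likelihood, TMM, library as a block, genes of at least 20 UMIs, Benjamini-Hochberg over 9686 genes, threshold 0.05. P-values set the difference between gates against a spread that the fit shares across genes and gate sums. A small p-value therefore does not show that the libraries were alike for that gene, which the library counts beside the folds describe. Nothing in the labels says how many mice a library holds. Ages and depilation have 1 library each, so no test was made; a call needed a 2-fold difference of CPM + 50, and intervals (exact Poisson or binomial, 95%) cover counting error only; limits for a count of 0 use 3 counts. Depth was 1032621 to 7491878 UMIs per library. Cells were thinned to 750 UMIs for shares and pairs; 7 Ctla2a-high, 6 other Cd3-positive and 19 class II-high cells were too shallow. Python 3.11.15, scanpy 1.11.5, scipy 1.17.1 and DESeq2 1.42.0 were also used, and the edgeR step was tested on simulated data.

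The genes and lists were chosen with earlier results of these data known. The text names the 9 genes, genes of the 7 lists (up to 4 per list, by largest absolute fold among those called, plus the fifth where a count of 5 is spelled out), marker lists, and the 3 genes closest to each member in log2(CPM + 50) over sums (at least 100 UMIs). The splits by Gzmc and Gzmb and their genes were chosen after values were seen. Alternatives were other scalings, filters, gates, thinning depths and leaving out each library; 4 kinds (a keratin limit of 0.2%, an NK gate from 1 panel UMI, NK-gated cells over 6000 UMIs left out, and further thinning draws) were added after seeing the data.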

Additional observations from a re-analysis of the deposited data

Results flagged for a closer look

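Cells outside the gates carried granule genes above the level of class II-high cells: the lower Poisson bound exceeded 5 times the upper bound there. Among 313 ungated cells with exactly 1 Cd3 UMI, Gzmc was at 668.8 CPM, Nkg7 at 215.5, Ctsw at 184.8 and Gzmb at 36.46, against 49.69, 19.54, 17.31 and 0.3722 CPM in class II-high cells. Among 827 ungated cells with 0 Cd3 UMIs, Gzmc was at 589.0 CPM and Ctsw at 146.4, against 49.69 and 17.31 CPM. These cells enter no comparison between gates.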

How the results depend on the processing

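Nkg7, Ctsw, Prf1 and Gzmb in Ctla2a-high over other Cd3-positive cells, and Gzmc in NK-gated over other Cd3-positive cells, were called in the same direction under every alternative that gave them a value. Over all members and contrasts, 677 refitted folds kept their side of the threshold, 42 lost a call and 33 gained one. A change of direction was counted only where the main fit or the refit called the gene. That left 1 fold, Gzmc in Ctla2a-high over other Cd3-positive cells, at -0.49 with a Ctla2a limit of 0.6%, and the cause was not tested. The 677 also hold folds that changed direction without a call. Srgn in Ctla2a-high over other Cd3-positive cells did so under the keratin limit. Of 9 members, the number higher in NK-gated over other Cd3-positive cells (2) was 5 with RLE and with a Ctla2a limit of 0.1%, 4 with filterByExpr (6 members tested), with other-lineage cells kept and without NK-gated cells over 6000 UMIs, 1 with DESeq2, and 2 to 4 without 1 library (4 without P80). The number lower (0) was 1 with DESeq2, a Ctla2a limit of 0.1%, an NK gate from Ncr1 alone, shared barcodes left out or the keratin limit. In Ctla2a-high over other Cd3-positive cells the number higher (4) was 2 with filterByExpr, 3 with DESeq2, no library block or a Ctla2a limit of 0.6%, and 5 with RLE, and the number lower (2) was 3 with the keratin limit and 1 with DESeq2, no gene filter, filterByExpr, no library block, at least 20 cells in a sum, Cd3-positive from 1 UMI, a Ctla2a limit of 0.1%, Ctla2a-high cells with Cd8b1 counted as Cd8b1-positive, other-lineage cells kept, an NK gate from 1 panel UMI, and 1 to 2 without 1 library. In Cd8b1-positive over other Cd3-positive cells the number higher (2) was 0 with DESeq2, 1 with filterByExpr or no library block, and 0 to 3 without 1 library (0 without P45, 1 without P50_Depil5D); the number lower (1) was 0 with filterByExpr or no block. In NK-gated over Ctla2a-high cells the number higher (3) was 1 with DESeq2 or no block and 1 to 4 without 1 library (1 without P50); the number lower (2) was 1 with RLE or no block, 0 with filterByExpr, and 1 to 2 without 1 library. Without a block, calls over all genes were 6 higher and 8 lower in Cd8b1-positive over other Cd3-positive cells, against 31 and 79. Requiring 20 cells left no NK-gated contrast.

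Members lower past 2-fold in P80 over P45 (1) were 2 in Ctla2a-high cells with a Ctla2a limit of 0.1%, and 2 in other Cd3-positive cells with the keratin limit or with 10 CPM added. Observed over expected for Gzmc and Prf1 in Ctla2a-high cells (0.303) was 0 when thinned to 500 UMIs, 0.695 when thinned to 1000, 0.761 without thinning, 0.235 and 0.753 in the added draws, and 0 to 0.391 without 1 library (0 without P50). For Gzmb and Gzmc in other Cd3-positive cells (0.6999) it was 0.324 without thinning and 0 to 1.14 without 1 library (0 without P63). Without thinning it moved to 1.66 for Gzmc with Ctsw and 1.55 for Nkg7 with Ctsw in other Cd3-positive cells. Mean levels moved by over 1 SD in 29 refits and by less in 367, with 11 of the 29 under the keratin limit. The gate contrasts are paired by library through the block. Between ages or with depilation, no paired analysis was possible because each group has 1 library. Depth limits Prf1, Fasl and Ifng in NK-gated cells and any Gzmc value of P80.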
